A study of Sus scrofa with 12 samples.

Results

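Blood mononuclear cells of boars carrying the SLA-DRB1 allele 070701 were set against those of boars whose allele the labels call New, described there as potentially new. SLA-DRB1 encodes the beta chain of DR, one of the pig's MHC class II molecules. The 4 arrays were chosen by their titles, out of 12 in the series, and 185 of the 188 gene probes printed on them could be tested. Each genotype was represented by 2 Yorkshire boars. Cells were taken from venous blood over a density gradient and received no treatment, and their RNA was amplified in 1 round before labelling. The 4 arrays form 2 hybridised pairs, A and B, each run a second time with the dyes exchanged. Arrays A1 and B2 carried 070701 cDNA in red, and arrays A2 and B1 carried it in green. The 070701 animals were hybridised elsewhere in the series with boars of allele 050502, and so were the New animals. The genotypes are defined at SLA-DRB1 alone, zygosity and age are not given in the sources used here, and it is not stated which hybridisations used the same animal. Pairs A and B were taken to hold different animals, as the series design implies.

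MHC class II molecules display peptides from engulfed material to CD4+ T cells, and in blood they are carried mainly by B cells, monocytes and dendritic cells. In pigs, resting T cells can carry them too. DR and DQ present peptides at the cell surface, while DM works inside the cell and helps load peptides onto them. Antigen presentation also depends on MHC class I molecules, which show peptides cut by the proteasome and pumped by the TAP transporter, and on CD1 molecules, which present lipids.

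Throughout, a ratio is a log2 ratio of 070701 over New, so that a negative value means less signal from 070701 cells. The value of a probe is the mean of pairs A and B, its SD is the spread between these pairs (n = 2), and its adjusted p comes from limma over all 185 probes. Of these probes, 2 passed the adjusted threshold of 0.05, which is 1.08%, and both were lower in 070701 cells. None was higher, which is 0%. At an unadjusted p under 0.05 there were 14 probes, or 7.57%, of which 3 were higher and 11 lower in 070701 cells. Most ratios were small, with 154 of 185 probes (83.2%) nearer to 0 than 0.2 and 8 farther from 0 than 0.5. The p-values measure the spread between so few hybridised pairs, and the number of arrays limits their precision.

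The 2 probes that passed were MHC-DQ and MHC-DY, both of MHC class II. MHC-DQ is named for the DQ molecule. MHC-DY is a class II probe whose name belongs to a class II gene pair of ruminants, and which pig transcript it detects is not given in the sources used here. The ratio of MHC-DQ was -1.59, -1.39, -1.43 and -1.08 on arrays A1, A2, B1 and B2. It was below -1 in both pairs and in both dye orientations. Its mean was -1.37 ± 0.16 (SD, n = 2 pairs), with a 95% interval of -1.61 to -1.13, and the limma adjusted p was 0.0059, a 2.59-fold lower signal in 070701 cells. The ratio of MHC-DY was -1.03, -1.21, -0.76 and -1.09 on the same arrays, and it averaged -1.02 ± 0.14 (SD, n = 2 pairs). Its 95% interval ran from -1.25 to -0.79 and its limma adjusted p was 0.00988, a 2.03-fold lower signal.

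The difference stood in the scanned intensities before any normalization. Over local background, MHC-DQ read 7895, 5955, 5885 and 6358 scanner units in the 070701 channel of arrays A1, A2, B1 and B2, against 31421, 16124, 16531 and 13144 in the New channel. Every 070701 reading was below every New reading. MHC-DY read 8243, 11267, 6623 and 10890 in the 070701 channel, against 21740, 31428, 11641 and 24947 in the New channel. Here too no 070701 reading reached the lowest New reading. How many of the tested probes had non-overlapping readings was not counted, so this separation has no background rate, here or for probes below. Before normalization the bright probes GAPDH and MHC-I were also lower in 070701 on each array, though with overlapping ranges. FcRN, another bright probe, was higher in 070701 on each array. Mononuclear cells were measured in bulk, so fewer cells that carry class II and less class II RNA per cell cannot be told apart. Probe sequences are not given in the sources used here. How well these probes match the class II transcripts of each genotype was therefore not tested.

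**Figure D1:**
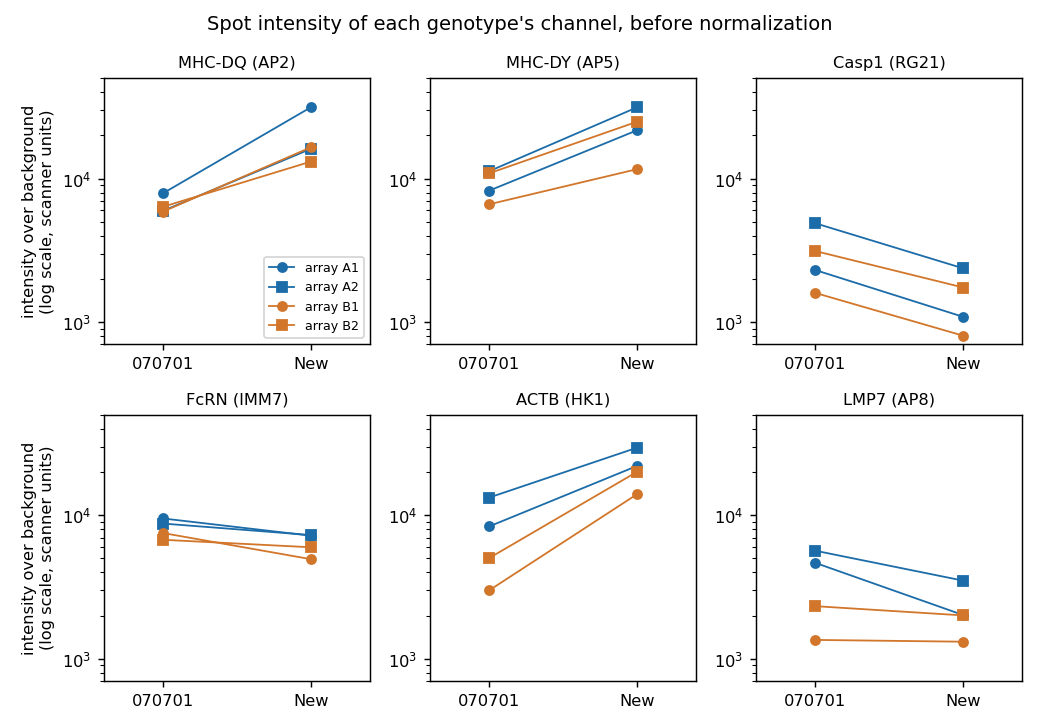
Spot intensity over local background (log scale, scanner units) in the 070701 channel and in the New channel of each array for 6 probes, with a line joining the channels of an array. MHC-DQ, MHC-DY and ACTB fall below New in the 070701 channel on all 4 arrays and Casp1 and FcRN lie above it on all 4, while LMP7 is clearly higher in 070701 on arrays A1 and A2 and close to New on B1 and B2.

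The calls rested on few pairs. For MHC-DQ the limma adjusted p was 0.167 when pair A was left out and 0.0901 when pair B was left out. For MHC-DY these values were 0.262 and 0.133. The ratios then lay between -1.49 and -0.93, and with a lone pair left for this comparison the spread came from the other comparisons' pairs, which the lone pair is assumed to share. With the spread estimated from these pairs alone, and not from all 6 pairs of the series, the adjusted p of MHC-DQ was 0.0981 and that of MHC-DY 0.106.

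The other class II probes were also lower in 070701 cells on all 4 arrays, without passing the threshold. MHC-DM, for the peptide-loading molecule, had ratios of -0.59, -0.62, -0.71 and -0.43, with a mean of -0.59 ± 0.02 (SD, n = 2 pairs) and a limma adjusted p of 0.20. Its intensity was 5944 to 7463 in the 070701 channel, against 10044 to 12358 in the New channel, so that these readings did not overlap. MHC-DR, named for the molecule whose beta chain gene defines the genotypes, had the smallest difference of the class II probes after loess. Its intensities were 13249, 21495, 9766 and 12578 in the 070701 channel, against 21793, 38620, 11635 and 15449 in the New channel. They were lower in 070701 on each array, although the ranges over arrays overlapped. The reference gene GAPDH, at 0.03 after loess, was likewise lower in 070701 on each array before normalization. GAPDH read 21172, 24484, 16276 and 21558 in the 070701 channel, against 29791, 31657, 18203 and 23590 in the New channel. The ratios of MHC-DR were -0.27, -0.43, -0.15 and -0.20, with a mean of -0.26 ± 0.12 (SD, n = 2 pairs) and a limma adjusted p of 0.389. The size of this ratio depended on the scaling, being -0.52 both with median centring in place of loess and with the authors' deposited log ratios. The list of 4 class II probes therefore had all 4 ratios below 0, with 2 past the threshold. Its median was -0.80, against a median of 0.0065 over all 185 probes. Over all probes, 27 of 185 (14.6%) were lower in 070701 cells on 4 of 4 arrays, and 28 (15.1%) were higher on 4 of 4.

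The boars of both genotypes were also compared with 050502 boars, and those ratios are given beside the ones above, although they share animals with them. For 050502 over 070701, MHC-DQ had 1.26 in pair A and 1.33 in pair B, and MHC-DY had 1.01 and 1.24. For 050502 over New, MHC-DQ had -0.24 and -0.46, and MHC-DY had -0.06 and -0.10. For both probes the ratio of 050502 over 070701 was above 1 in both pairs, and the ratio of 050502 over New lay within 0.5 of 0. MHC-DM had 0.68 and 0.21 for 050502 over 070701 and -0.14 and -0.34 for 050502 over New. MHC-DR had 0.05 and 0.04 for 050502 over 070701 and -0.20 and -0.31 for 050502 over New, so that its signal in New cells was the higher one in both of its comparisons.

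**Figure D2:**
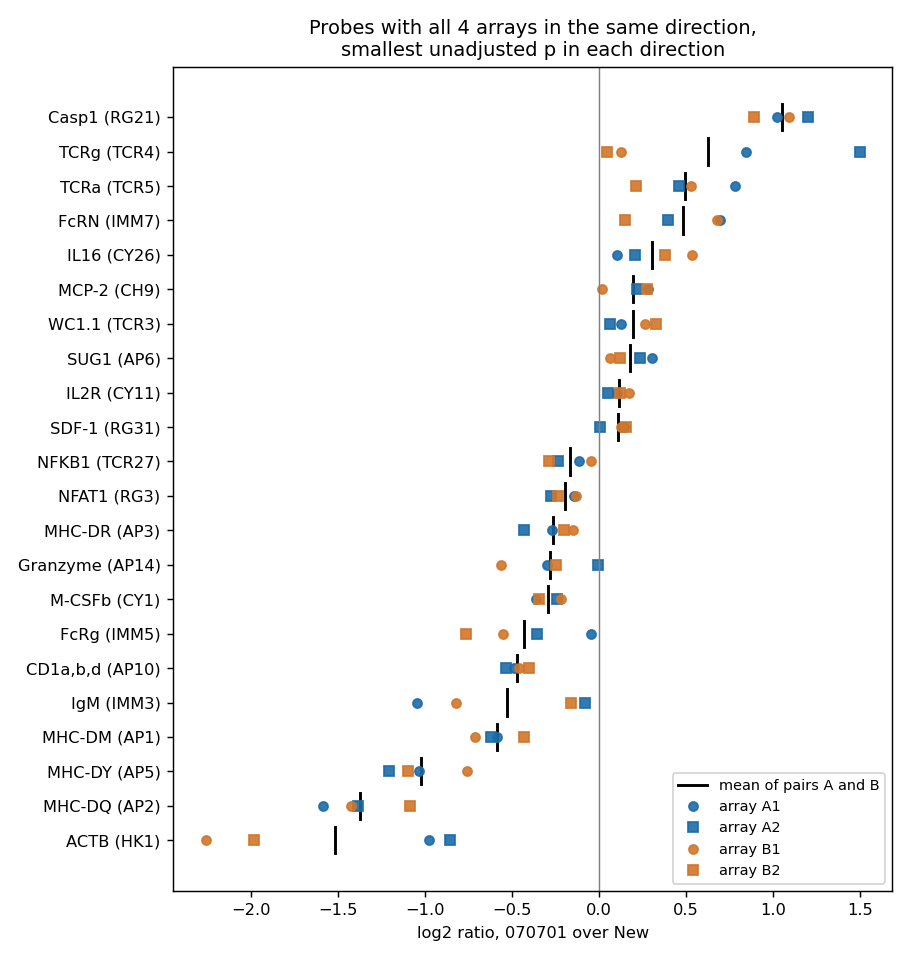
Log2 ratio of 070701 over New on each of the 4 arrays (circles and squares, blue for pair A and orange for pair B), with a black bar for the mean of the pairs, for probes that went 1 way on all 4 arrays and had the smallest unadjusted p in each direction, among the probes reported here. MHC-DQ at -1.37 and MHC-DY at -1.02 are the only probes past the adjusted threshold, and Casp1 has the highest mean at 1.05.

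Markers of the blood cells that carry class II were examined beside these probes. The B cell list held 6 probes, of which 5 were tested, 0 passed the test and all 5 had a ratio below 0, with a median of -0.26. IgM, the antigen receptor class of naive B cells, averaged -0.53 ± 0.05 (SD, n = 2 pairs; limma adjusted p = 0.80). Its ratio was -1.04 and -0.82 on arrays A1 and B1 but -0.08 and -0.16 on arrays A2 and B2. It was also a dim probe, at 245 to 753 units in the 070701 channel and 333 to 1135 units in the New channel. IgG2a averaged -0.31 ± 0.16, CD72, a coreceptor on B cells, -0.26 ± 0.18, IgG1 -0.25 ± 0.09, and IgJ, the joining chain of secreted immunoglobulin, -0.02 ± 0.0015 (SD, n = 2 pairs each). IgG2a and IgG1 were brighter than both negative-control DNAs, while IgM, CD72 and IgJ were not. IgA was not tested because it was seldom above background. Summed over the 5 tested B cell probes, intensity ran from 4636 to 11741 in the 070701 channels and from 4838 to 13256 in the New channels, and was lower in 070701 on all 4 arrays. The part of B cell abundance in the class II ratios was not tested.

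The monocyte and dendritic cell probes had no common direction. CD14, the lipopolysaccharide coreceptor of monocytes, averaged 0.12 ± 0.12 (limma adjusted p = 0.997), and Myd-1, the signal-regulatory protein used as a myeloid marker in pigs and cattle, averaged -0.04 ± 0.06 (SD, n = 2 pairs each). TLR4, the receptor for lipopolysaccharide, was at -0.0043 ± 0.09. TLR2, a receptor for bacterial lipoproteins, differed between pairs, with 0.05 and 0.07 on the arrays of pair A and 0.71 and 0.73 on those of pair B. Of these 4 monocyte probes 0 passed the test, 2 lay above 0, and their median was 0.06. Their summed intensity was 5254 to 10852 in the 070701 channels against 3672 to 10505 in the New channels, and was higher in 070701 on all 4 arrays. Only TLR2 among these monocyte probes was brighter than both negative controls. Before normalization both negative controls, VapA and pACYC177, were also higher in the 070701 channel on all 4 arrays. VapA read 794 to 2087 there, against 654 to 1882 in the New channel.

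CD1 stood near class II in direction. The probe for CD1a,b,d read -0.49, -0.53, -0.46 and -0.40, the narrowest spread over arrays among the leading probes below 0, and averaged -0.47 ± 0.06 (SD, n = 2 pairs) with a limma adjusted p of 0.19. Costimulatory molecules, which give T cells their second signal, lay close to 0. CD80 averaged 0.12 ± 0.02, CTLA4, the inhibitory receptor that competes for CD80 and CD86, 0.14 ± 0.02, CD86 0.03 ± 0.11, CD40 0.0019 ± 0.05 and CD40L 0.02 ± 0.02 (SD, n = 2 pairs each). CD28 was printed as 2 probes, which gave -0.03 ± 0.04 and 0.10 ± 0.06 (SD, n = 2 pairs each). Of the 8 CD1 and costimulation probes 0 passed and 6 lay above 0, with a median of 0.02. Only CD1a,b,d among these 8 was brighter than both negative controls, which limits what the costimulation ratios can show.

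In the class I pathway, ratios stood on both sides of 0 and 0 probes passed. MHC-I, the probe for the class I molecules themselves, had ratios of 0.04 and -0.0092 on the arrays of pair A and -0.53 and -0.21 on those of pair B, with a mean of -0.18 ± 0.27 (limma adjusted p = 0.91), or -0.47 with median centring in place of loess. The transporter subunits TAP1 and TAP2 averaged -0.05 ± 0.08 and -0.35 ± 0.02 (SD, n = 2 pairs each). TAP2 owed its mean mainly to arrays A1 and B1, at -0.75 and -0.48, while A2 and B2 read 0.06 and -0.25. The immunoproteasome subunits LMP2 and LMP10 averaged 0.13 ± 0.07 and -0.06 ± 0.16, and the chaperone CALR averaged -0.10 ± 0.09. LMP7, the other immunoproteasome subunit, read 1.26 and 0.74 in pair A, against -0.13 and 0.12 in pair B. In this list of 7 probes 2 lay above 0 and the median was -0.06.

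Casp1, the inflammasome protease that cuts the precursors of IL-1 beta and IL-18, had the highest mean ratio of the 185 probes. It read 1.03, 1.20, 1.09 and 0.89 on arrays A1, A2, B1 and B2, a mean of 1.05 ± 0.09 (SD, n = 2 pairs) or 2.07-fold more signal in 070701 cells. The limma adjusted p was 0.19 and the 95% interval 0.49 to 1.62. Its intensities were 2302, 4882, 1594 and 3125 in the 070701 channel, against 1086, 2366, 802 and 1740 in the New channel, higher in 070701 on each array although the ranges over arrays overlapped. The variance of Casp1 was estimated from all 6 hybridised pairs of the series, so the spread in the other comparisons entered its p. Casp13A, named after an inflammatory caspase of cattle, read 0.37, 0.70, 0.51 and 0.10 and averaged 0.42 ± 0.16 (SD, n = 2 pairs). The substrates of Casp1 lay nearer to 0. IL1b, the pro-inflammatory cytokine, averaged 0.17 ± 0.02 with a 95% interval of -2.46 to 2.79, and IL18 averaged -0.19 ± 0.05 (SD, n = 2 pairs each). IL1a, which needs no caspase for activity, averaged 0.35 ± 0.14, and the receptor antagonist IL1antag 0.04 ± 0.08 (SD, n = 2 pairs each). Of this list of 6 probes 0 passed, 5 lay above 0, and the median was 0.26. Casp1 was the only probe of this list brighter than both negative controls, which limits what the ratios of the others can show.

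Among the Fc receptors, FcRN, the neonatal receptor that salvages IgG from breakdown, came nearest to the threshold from above 0. Its ratios were 0.69, 0.40, 0.68 and 0.15, with a mean of 0.48 ± 0.09 (SD, n = 2 pairs), a 95% interval of 0.29 to 0.67 and a limma adjusted p of 0.0858. The 070701 channel read 9512, 8765, 7529 and 6756 units on arrays A1, A2, B1 and B2, against 7214, 7288, 4948 and 5988 in the New channel. The difference was in 1 direction on all 4 arrays but narrow on B2. FcRg lay on the other side, with -0.05 and -0.36 in pair A and -0.55 and -0.76 in pair B, and averaged -0.43 ± 0.32 (limma adjusted p = 0.40). FcRgIII, for the receptor of natural killer cells and monocytes, averaged 0.15 ± 0.09, FcRI 0.10 ± 0.10, FcR2 0.08 ± 0.01, FcgIIR -0.10 ± 0.07 and FcRgII -0.15 ± 0.04 (SD, n = 2 pairs each). Of 7 Fc receptor probes 0 passed, 4 lay above 0, and the median was 0.08.

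T cell receptor chains gave ratios on both sides of 0. TCRa, the alpha chain of most T cells, read 0.78, 0.46, 0.53 and 0.21 and averaged 0.50 ± 0.18 (SD, n = 2 pairs; limma adjusted p = 0.53). TCRb, its partner chain, read -0.04, -0.15, -0.23 and -0.20 and averaged -0.16 ± 0.09, or -0.33 with median centring in place of loess, so that the 2 chains of the same receptor lay on opposite sides of 0. TCRg, the gamma chain of gamma delta T cells, which are abundant in pig blood, was at 0.84 and 1.5 in pair A and 0.13 and 0.05 in pair B. Its intensities were 1883 to 3061 in the 070701 channel and 751 to 1645 in the New channel of pair A, and in pair B 325 to 2283 in the 070701 channel and 264 to 1917 in the New channel. TCRd, the delta chain, averaged 0.14 ± 0.19, and WC1.1, a coreceptor of gamma delta T cells in cattle, averaged 0.20 ± 0.14 and was above 0 on all 4 arrays.

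The CD3 and coreceptor probes lay close to 0. CD3g averaged 0.0065 ± 0.03, CD4 0.02 ± 0.12, CD5 0.02 ± 0.08, TCRz 0.07 ± 0.16 and TCRe -0.13 ± 0.12 (SD, n = 2 pairs each). CD3d averaged -0.17 ± 0.03, with -0.48 and -0.41 on arrays A1 and B1 and 0.10 and 0.11 on A2 and B2. Of 11 T cell probes 0 passed, 8 lay above 0, and the median was 0.02. Their summed intensity was 18857 to 33995 in the 070701 channels and 18386 to 33802 in the New channels. Granzyme, the protease of cytotoxic granules, averaged -0.28 ± 0.18 and lay below 0 on all 4 arrays (limma adjusted p = 0.53), and FasL, the death ligand of cytotoxic cells, averaged -0.00079 ± 0.06. With FcRgIII these made up the list of 3 natural killer and cytotoxic probes, of which 0 passed. Lactoferrin, a protein of neutrophil granules, was above background on 0 of the 4 arrays in either channel and was not tested, and IL8R, a receptor that neutrophils carry in abundance, averaged -0.11 ± 0.19 (SD, n = 2 pairs).

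**Figure D3:**
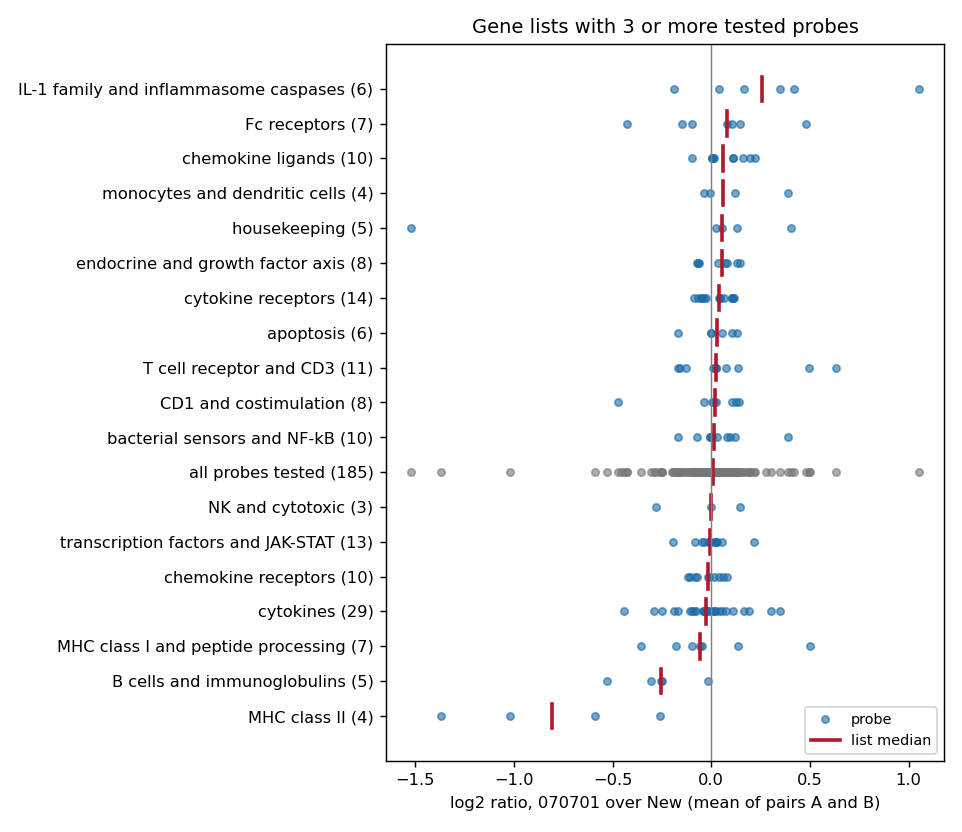
Log2 ratio of 070701 over New (mean of pairs A and B) for each probe of the gene lists with 3 or more tested probes and for all 185 tested probes, with a red bar for each median and the number of probes in brackets. The median of the 4 class II probes is -0.80 and that of the 5 B cell probes -0.26, while the median of the 6 IL-1 family and caspase probes is 0.26 and that of all probes 0.0065.

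Chemokine ligands, which guide cells to tissues, were mostly a little above 0. RANTES, a product of activated T cells, read 0.23, 0.39, 0.10 and 0.17 and averaged 0.22 ± 0.12, and MCP-2, which attracts monocytes, averaged 0.20 ± 0.07 (SD, n = 2 pairs each). SDF-1, the ligand of CXCR4, averaged 0.11 ± 0.04, and IL8, which attracts neutrophils, 0.16 ± 0.16. Of 10 chemokine ligand probes 0 passed, 9 lay above 0 and the median was 0.06. Among all 185 probes, 98 lay above 0. The negative controls VapA and pACYC177 averaged 0.09 ± 0.03 and 0.05 ± 0.08 (SD, n = 2 pairs each), so a shift of this size was also seen in DNA without a pig counterpart. The probe spelled MPIb on the array read -0.62 and -0.29 in pair A, against 0.72 and 0.62 in pair B. It was the only chemokine ligand brighter than both negative controls.

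Chemokine receptors had no common direction, with 4 of 10 above 0, 0 passed and a median of -0.02. CXCR4, the homing receptor for SDF-1, split between the pairs, at -0.44 and -0.53 in pair A and 0.60 and 0.05 in pair B. CCR7, which takes naive T cells and dendritic cells to lymph nodes, averaged -0.12 ± 0.16, and CCR1, a receptor for inflammatory chemokines, 0.08 ± 0.10 (SD, n = 2 pairs each).

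The 29 cytokine probes had a median of -0.02, with 11 above 0, 18 below 0 and 0 past the test. IL16, which attracts CD4+ cells, read 0.10, 0.21, 0.53 and 0.38 and averaged 0.31 ± 0.21 (SD, n = 2 pairs). M-CSFb, for the growth factor of monocytes, read -0.36, -0.24, -0.22 and -0.34, with a mean of -0.29 ± 0.01 and a limma adjusted p of 0.26. TGFb-2, an immunosuppressive cytokine, averaged -0.44 ± 0.23 and was below 0 on all 4 arrays. LTb, which organises lymphoid tissue, averaged -0.17 ± 0.10 and TNFb -0.11 ± 0.04, both below 0 on all 4 arrays. Cytokines that define T helper responses were near 0, with IFNg at -0.04 ± 0.0062, IL4 at 0.009 ± 0.0092, IL17 at 0.02 ± 0.02 and IL10 at 0.02 ± 0.04 (SD, n = 2 pairs each). IL2, the T cell growth factor, averaged 0.19 ± 0.02 and its receptor probe IL2R 0.11 ± 0.05, and each was above 0 on all 4 arrays. Neither was brighter than both negative controls, and the control VapA, at 0.09, was above 0 on all 4 arrays too. Among 14 cytokine receptors 0 passed, 8 lay above 0, and the median was 0.04. IL4R differed in sign between pairs, at -0.07 and -0.20 in pair A and 0.45 and 0.26 in pair B.

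Most signalling and survival probes had ratios near 0. Only 2 of 13 transcription factor and JAK-STAT probes and 0 of 6 apoptosis probes were brighter than both negative controls. IRF1, a transcription factor of the interferon response, averaged 0.01 ± 0.0011. NFAT1, a calcium-driven factor of activated T cells, averaged -0.20 ± 0.02 and lay below 0 on all 4 arrays (limma adjusted p = 0.53). The 2 probes named NFKB1, for an NF-kB subunit, averaged -0.07 ± 0.0096 and -0.17 ± 0.0059, both below 0 on all 4 arrays, while NFKB2 averaged 0.10 ± 0.04 (SD, n = 2 pairs each). Of 13 transcription factor and JAK-STAT probes 0 passed and 6 lay above 0. Of 10 bacterial sensor and NF-kB probes 0 passed and 6 lay above 0. The sensors of bacterial cell wall fragments NOD1 and NOD2 averaged -0.0068 ± 0.0099 and 0.08 ± 0.06.

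Apoptosis genes gave 3 probes above 0 and 3 below, with 0 passed. Bcl-2, which holds apoptosis back, read -0.63 and -0.21 in pair A and -0.01 and 0.18 in pair B. Adhesion molecules CD44 and ICAM3 averaged 0.08 ± 0.05 and -0.0078 ± 0.02. Of 8 endocrine and growth factor probes 0 passed and 5 lay above 0, among them GHR, the growth hormone receptor, at 0.14 ± 0.04 and IGF1R, the IGF-1 receptor, at 0.13 ± 8.2e-05 (SD, n = 2 pairs each). The ratios of IGF1R were 0.30, -0.04, 0.06 and 0.20 on arrays A1, A2, B1 and B2. Its small SD therefore does not show agreement of the arrays. Neither GHR nor IGF1R was brighter than both negative controls.

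Of the genes usually taken as constant, ACTB and RPL19 had the widest ratios after loess. ACTB, for the cytoskeletal protein beta-actin, read -0.98 and -0.86 in pair A, against -2.26 and -1.98 in pair B. This gave the ratio farthest from 0 of all 185 probes, -1.52, but with an SD of 0.85 between pairs, a 95% interval of -2.92 to -0.12 and a limma adjusted p of 0.53. This outcome depended on the input ratios and on the model. The same test on the authors' deposited log ratios, which were not centred, gave -1.65 and an adjusted p of 8.31e-07. ACTB also passed when the 12 arrays of the series were fitted singly with the hybridised pair as a random block (limma adjusted p = 0.048). It did not pass under the other normalizations and background corrections, such as median centring, at -1.71 with a limma adjusted p of 0.448. The ACTB intensities were 8366, 13303, 2996 and 5033 in the 070701 channel, against 22105, 29637, 14039 and 20114 in the New channel, with no overlap. RPL19, a ribosomal protein gene, read 0.08 and 0.07 in pair A and 0.84 and 0.62 in pair B, and its mean of 0.40 ± 0.46 was 0.21 with median centring in place of loess. GAPDH, a glycolytic enzyme, averaged 0.03 ± 0.02 and the probe named only B2 0.13 ± 0.07, but with median centring they turned to -0.27 and -0.033. HPRT, of purine salvage, averaged 0.06 ± 0.10 (SD, n = 2 pairs each). Of the 5 housekeeping probes 0 passed, and 4 lay above 0. Their median was 0.06 and their mean -0.18, so these differ in sign because of ACTB.

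How far a ratio held from one hybridised pair to the other differed among probes. The median SD between pairs was 0.06, and 125 of 185 probes had the same sign in both. In 18 probes the pairs were more than 0.3 apart and in 8 more than 0.5, namely ACTB, MPIb, TCRg, LMP7, CXCR4, TLR2, RPL19 and Bcl-2. Of those 8, 4 had opposite signs in pairs A and B. For ACTB, MPIb, TLR2 and RPL19 the arrays of a dye exchange lay close to each other, at most 0.33 apart, while the pairs lay more than 0.5 apart. Across probes, ratios of pairs A and B correlated with r = 0.64, or 0.54 without the class II probes. Probes are not independent replicates, and this value describes the arrays only. Pair A was scanned on a date of its own and pair B on a date shared with other arrays of the series, so hybridised pair and scan date cannot be told apart.

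**Figure D4:**
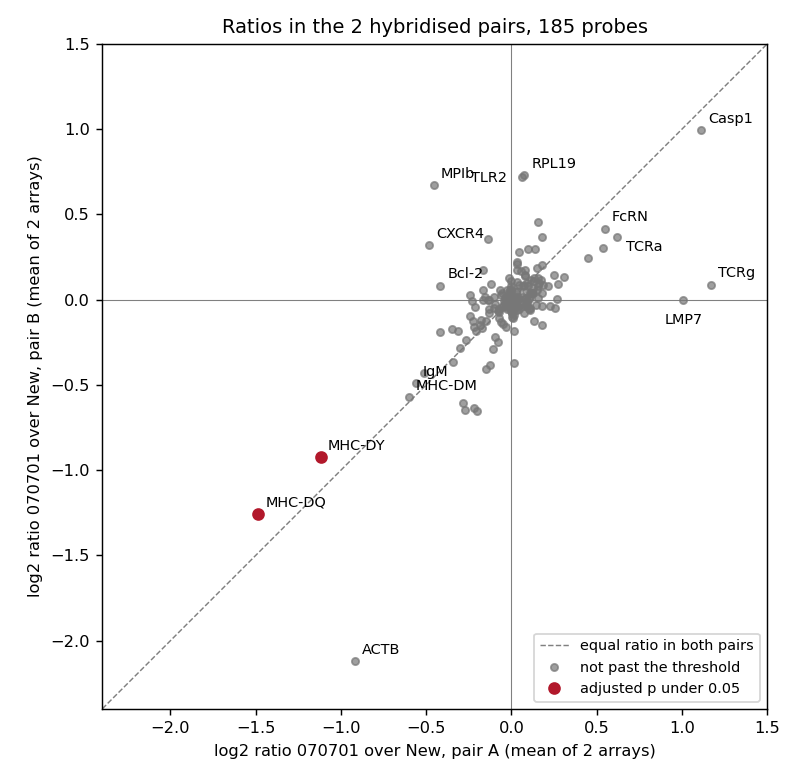
Log2 ratio of 070701 over New in pair A (horizontal) against pair B (vertical), each the mean of 2 arrays, for 185 probes, with a dashed line where both pairs are equal and red points for adjusted p under 0.05. MHC-DQ, MHC-DY, MHC-DM and Casp1 lie near the dashed line, while ACTB, MPIb, TCRg, LMP7, CXCR4, TLR2, RPL19 and Bcl-2 lie more than 0.5 from equality.

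Median spot intensity was 881.5 to 2004 in red and 1020 to 2078.5 in green, over median backgrounds of 96 to 199, and 183 to 186 probes were detected per channel. Of 185 probes, 42 were brighter than both negative controls, which are DNA of the bacterial gene VapA and of the plasmid pACYC177, and 143 were not. Among the 42, 25 went 1 way on all 4 arrays, against 30 among the 143. All 4 class II probes, Casp1, FcRN, CD1a,b,d and TCRa were among the 42. Most cytokine, chemokine, receptor, signalling and apoptosis probes were not. Their ratios near 0 came from signal no brighter than that of DNA without a pig counterpart, which limits what those ratios can show. T cell, B cell and monocyte probes were above local background in both channels of all 4 arrays, apart from IgM in the 070701 channel of 1 array, with 3 of 11, 2 of 5 and 1 of 4 brighter than both negative controls.

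**Figure D5:**
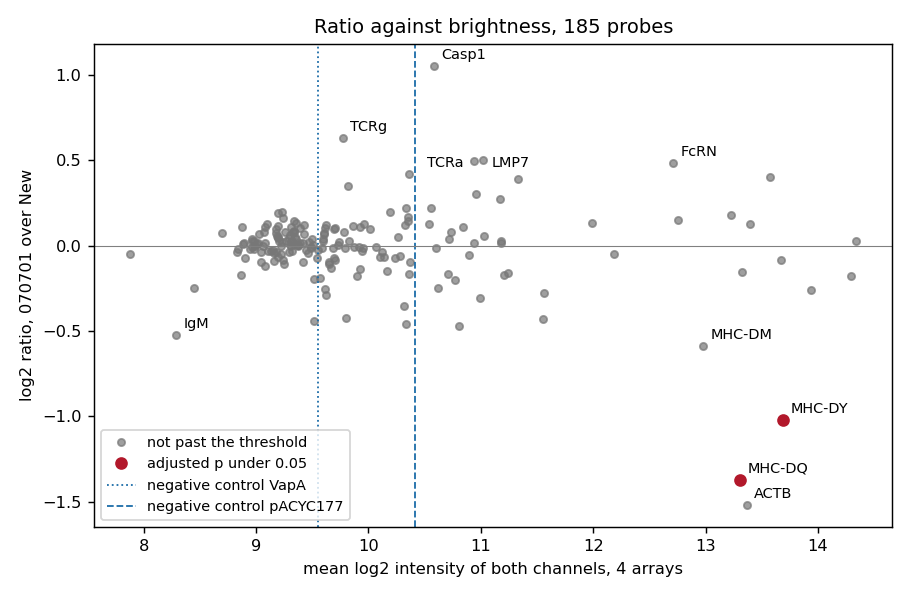
Log2 ratio of 070701 over New (mean of pairs A and B) against mean log2 intensity of both channels over the 4 arrays, for 185 probes, with vertical lines at the negative controls VapA and pACYC177 and red points for adjusted p under 0.05. MHC-DQ and MHC-DY lie far to the right of both controls, and 42 probes are brighter than both.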

How the data were processed

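Per the file headers, the deposited files hold spot intensity at 635 and 532 nm as GenePix Pro 6.0.1.25 measured it, unnormalized, with local background and the percent of saturated pixels, at most 20 percent on these 4 arrays. The authors' deposited log2 ratios of red over green matched the scanner software's own and were not centred. They served only as an alternative. Probe sequences and species are not given in the sources used here.

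In limma 3.58.1 (R 4.3.3), foreground medians were corrected with normexp (offset 50) and each array was normalized by global loess, with weight 0 for controls and spots marked not found. This centres each array on the bulk of its probes. The mean over a probe's spots was turned to 070701 over New by the channel labels, and the arrays of a dye exchange, made from the same extracts, gave 1 value. Probes had to lie 2 background SD above background in a channel of 6 or more arrays of the series. C4, IgA and Lactoferrin did not. Intensities quoted are foreground minus background medians, unnormalized, averaged over spots.

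The 6 hybridised pairs of the 3 genotypes were fitted together with lmFit and eBayes (3 residual and 1.85 prior degrees of freedom), as if independent, although they share animals. P-values are two-sided with Benjamini-Hochberg adjustment over 185 probes. The procedure was tested on simulated ratios with independent pairs, which leaves out the animals shared between comparisons. Named probes were those called, those of MHC class II, up to 12 per direction of smallest p with 4 arrays alike, and of each list the 4 farthest from 0 (every member in lists of up to 4). Others were picked after their values were seen. A few probes that the rule names are not reported here. The comparison, lists and rules were chosen with earlier results of these data known.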

Additional observations from a re-analysis of the deposited data

Results flagged for a closer look

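Among 71 named probes, 2 had 1 of the 4 arrays standing far from the other 3. Chance alone marks about 1 in 20 such sets when the values are independent. Here the arrays of a dye exchange share extracts, and some probes were named because their arrays went alike, so this rate need not hold. CCR7 read 0.19 on array B2, against -0.23, -0.23 and -0.20 on arrays A1, A2 and B1. The probe named B2, of the housekeeping set, read -0.024 on array A1, against 0.19, 0.19 and 0.16 on arrays A2, B1 and B2. CCR7 was no brighter than the negative controls, while the B2 probe was. What set these arrays apart was not tested.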

How the results depend on the processing

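Under 24 alternative settings MHC-DQ stayed between -1.54 and -1.23 and MHC-DY between -1.24 and -0.89, with limma adjusted p from 9.99e-06 to 0.36 for MHC-DQ and from 0.0001 to 0.26 for MHC-DY. In place of 2 probes lower and 0 higher in 070701 than in New, there were 0 lower and 0 higher with the 2 ratios of this comparison alone, and 0 without pair A or without pair B. With the first array of each dye exchange 1 probe was lower (MHC-DY missed, adjusted p = 0.0823), and with the second 1 (MHC-DQ missed, adjusted p = 0.36). Treating 12 arrays singly, which gives more residual degrees of freedom, called 5 lower and 2 higher with the hybridised pair as a random block, adding MHC-DM, CD1a,b,d, ACTB, Casp1 and FcRN, and 7 lower and 2 higher with the scan date as a random block, adding MHC-DR and FcRg to these. A closed loop with 1 coefficient per genotype called 4 lower and 1 higher, adding MHC-DM, CD1a,b,d and FcRN. The authors' deposited log ratios, whose median over all probes was 0.15 against 0.0065, called 3 lower and 1 higher, adding ACTB and Casp1. Both calls stood under the other normalizations, background corrections and filters, and with an intensity trend. Apart from what fewer samples or more degrees of freedom set, the cause was not tested. The labels give the letters A and B to every comparison. Gaps between A and B correlated across probes between comparisons with r of 0.53, 0.62 and 0.43, but the comparisons share boars and no label says what a letter shares. With the letter as a replicate block, 3 probes were lower, adding ACTB (adjusted p = 0.00384).

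Of 71 named probes, 29 changed sign somewhere, none of them called, with main ratios no farther from 0 than 0.50. With median centring in place of loess Myd-1 was at 0.0055, GAPDH at -0.27, B2 at -0.033 and ICAM3 at 0.057. FasL was at 0.00060 with background subtracted and 0.0043 with no background correction. The median of spots gave ICAM3 0.0013 and Jak1 -0.0029. First arrays gave Myd-1 0.0078, CCR1 -0.078, CXCR4 0.078, HPRT -0.014 and TLR4 0.032, and second arrays gave FcRgIII -0.028, ICAM3 0.048, FasL 0.0028 and CD3d 0.10. Under the scan date block CXCR4 was at 0.086 and TLR4 at 0.011. The closed loop gave IL8 -0.032, GAPDH -0.024, TLR2 -0.068, TLR4 0.0070 and TCRb 0.045. The deposited ratios gave Myd-1 0.12, SUG1 -0.0025, IL8R 0.061, CCR7 0.048, IL18 0.0040, IGFBP3 0.095, GAPDH -0.29, B2 -0.039, FcRgII 0.040, TLR4 0.15, ICAM3 0.16, FasL 0.14, NFAT1 0.0012, Bcl-2 0.020, T-bet 0.098 and CD3d 0.15. With 1 pair left out, LMP7 ranged from -0.0033 to 1.00, IL8R from -0.25 to 0.025, CXCR4 from -0.49 to 0.32, TNFR-1 from -0.050 to 0.26, TLR4 from -0.067 to 0.058, ICAM3 from -0.022 to 0.0064, Fas from -0.033 to 0.14, Bcl-2 from -0.42 to 0.083, Myd-1 from -0.079 to 0.0035, MHC-I from -0.37 to 0.016, IL4R from -0.14 to 0.36, HPRT from -0.015 to 0.13, FasL from -0.042 to 0.040 and T-bet from -0.19 to 0.018.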

Other observations

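Several probes outside the gene lists, picked after their values were seen, had ratios of 070701 over New away from 0 without passing the threshold. CH, printed among the complement probes, read -0.68, 0.14, -0.80 and -0.49 on arrays A1, A2, B1 and B2 and averaged -0.46 ± 0.27 (SD, n = 2 pairs; limma adjusted p = 0.53). C3, the central complement component, averaged -0.20 ± 0.13, and SOD, for superoxide dismutase, -0.16 ± 0.12. MOMa read -0.26, -0.17, -0.43 and -0.84 and averaged -0.43 ± 0.30, and IFNtp read 0.10, 0.26, 0.37 and 0.37 and averaged 0.28 ± 0.13 (SD, n = 2 pairs each). SUG1, a proteasome subunit, was above 0 on all 4 arrays, with a mean of 0.18 ± 0.13, or 0.013 with median centring in place of loess.

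In 21 probes the first and the second array of each dye exchange differed in the same direction in both pairs, by more than 0.3 on average, with the first arrays lower in 15 and higher in 6. Of these 21, 8 were brighter than both negative controls and 13 were not. IgM, CD3d, MIF, JunB and TAP2 were among the 13, while C3, with -0.30 and -0.49 on the first arrays and 0.09 and -0.09 on the second, and FcRN, with 0.69 and 0.68 against 0.40 and 0.15, were among the 8. MIF, a cytokine that holds macrophages in place, read -0.54 and -0.49 on arrays A1 and B1, against 0.008 and 0.03 on A2 and B2. JunB, an AP-1 transcription factor, read -0.29 and -0.21 on the first arrays and 0.18 and 0.26 on the second. The first arrays of pairs A and B had opposite dye orientations. For IgM, the SD between spots of an array was 0.43 and 0.42 on the first arrays and 0.09 and 0.06 on the second. The cause was not tested.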
